A study of Rattus norvegicus with 28 samples.

Results

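Immediate early genes are the first genes that a neuron transcribes after it has been strongly activated, and here they were followed in the amygdala of rat pups directly after a session of odor-shock training. The genes were Fos, Junb, Jun, Egr1, Egr2, Nr4a1, Arc, Btg2 and Homer1. Their probe sets were chosen by the gene symbol in the authors' deposited saline comparison table, which gave 16 of the 15866 probe sets measured and 8 of the 9 genes. Junb, Egr1, Nr4a1 and Arc had 1 probe set each, Egr2 and Btg2 had 2 each, Jun had 3 and Homer1 had 5. No probe set carried the symbol Fos. Probe set 1375043_at, which has no symbol and whose deposited title gives a strong similarity to the human FOS protein, was therefore described beside the members as the Fos-similar probe set, and it is in none of the member counts.

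In a session of 45 min, pups received 11 presentations of a peppermint odor of 30 s and a tail shock of 1 s at 0.5 mA. In paired pups the shock ended together with the odor, whereas unpaired pups, the controls, were shocked 2 min after it. There were 28 arrays, each of 1 amygdala RNA sample: untreated pups of 12 days (4 paired and 4 unpaired), corticosterone-treated pups of 8 days (3 paired and 3 unpaired) and saline-treated pups of 8 days (7 paired and 7 unpaired). Strain, sex, the dose of corticosterone and the number of pups in a sample are not given in the sources used here, and there was no untrained group, so every pup had received shocks and odors before its brain was taken. The series title names dopamine in the infant amygdala and transitions in infant learning as its topic.

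Immediate early genes need no new protein for their transcription, which starts within minutes of calcium entry and MAP kinase signalling. Transcription factors that are already present in the cell, CREB at cyclic AMP response elements and serum response factor at CArG boxes, switch them on. Some encode transcription factors themselves, such as FOS and JUN proteins, the zinc finger EGR proteins and the nuclear receptor NR4A1, while others, such as ARC and HOMER1, act at the synapse. In the amygdala they are widely used to mark neurons that were active during learning.

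The promoters of 6 of the 9 genes were in the RefSeq promoter table of assembly GRCr8, those of Junb, Egr1, Egr2, Nr4a1, Btg2 and Homer1. The 250 bases before the start of 3 of them are shown because Btg2 was the only member called between paired and unpaired pups, Nr4a1 was among the genes with the largest difference between ages, and Egr1 differed most between paired and unpaired pups treated with saline. Capitals mark the half-site TGACG of the cyclic AMP response element, on either strand (CGTCA on the other), and CArG boxes.
Btg2, chr13:48087691-48087940, minus strand: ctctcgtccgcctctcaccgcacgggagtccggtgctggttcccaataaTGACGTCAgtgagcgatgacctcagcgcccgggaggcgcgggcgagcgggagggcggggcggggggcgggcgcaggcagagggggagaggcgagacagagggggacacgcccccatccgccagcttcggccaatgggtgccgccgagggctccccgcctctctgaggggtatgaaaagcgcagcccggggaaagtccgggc
Nr4a1, chr7:134259888-134260137, plus strand: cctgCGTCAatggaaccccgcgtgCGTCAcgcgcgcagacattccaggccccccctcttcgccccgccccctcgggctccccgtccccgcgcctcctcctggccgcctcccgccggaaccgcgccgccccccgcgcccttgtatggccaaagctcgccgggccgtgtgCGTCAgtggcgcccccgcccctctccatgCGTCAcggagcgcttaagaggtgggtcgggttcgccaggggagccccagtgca
Egr1, chr18:26736828-26737077, plus strand: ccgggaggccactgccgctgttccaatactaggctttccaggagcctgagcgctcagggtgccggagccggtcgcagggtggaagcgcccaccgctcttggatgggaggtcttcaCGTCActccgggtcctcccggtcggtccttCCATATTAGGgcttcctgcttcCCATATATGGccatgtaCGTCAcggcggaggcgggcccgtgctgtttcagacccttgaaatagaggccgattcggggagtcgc
The Btg2 promoter held the full palindromic element TGACGTCA, 201 bases upstream of the gene start, in which 2 half-sites overlap. This element was in 1.59% of all 33469 promoters of the same length, and the half-site was in 18.2% of them. Nr4a1 had 4 half-sites, which start 246, 226, 82 and 53 bases upstream. In Egr1 there were 2 half-sites, at 135 and 66 bases upstream, and 2 CArG boxes, at 105 and 83 bases upstream. CArG boxes were in 1.50% of all promoters, and a CArG box together with a half-site was in 0.230%. Egr2 held 1 CArG box and 1 half-site, Junb held 1 half-site, and Homer1 held neither motif in this window. A match is a description of the letters and not of binding.

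All values are log2 expression values as the authors deposited them. The arrays of each condition had been normalized apart, with array medians of 6.38 to 6.46 at 12 days, 5.06 to 5.09 with corticosterone and 6.05 to 6.19 with saline, so levels of different conditions were compared only as a description, relative to the median of each array. Arrays also formed sets by replicate number (1 to 2 and 3 to 4 at 12 days, and 1 to 2, 3 to 4 and 5 to 7 with saline). Deviations from group means correlated at 0.51 to 0.65 within 12-day sets and at most -0.60 between them, and at 0.33 to 0.83 within saline sets and at most 0.08 between them. Replicates 3 and 4 of the 12-day and saline groups were on a larger array design, and the other 20 arrays were on a smaller one. Paired and unpaired arrays occur in every set. Of the 8 measured neuronal markers Snap25 stood highest, at the 99.2 percentile of its array on average at 12 days, 98.6 with corticosterone and 98.9 with saline. Camk2a stood lowest, at 53.6, 52.6 and 40.4 in the same order. Only 3 of 6 amygdala markers were measured, of which Prkcd lay at the 73.9, 64.9 and 65.7 percentile in the same order, and Crh and Cyp26b1 lay below the 50 percentile in every condition.

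The levels of most immediate early genes were higher in the 12-day amygdala than in the 8-day saline amygdala. On the smaller design, 9 of the 16 member probe sets lay more than 1 log2 unit higher relative to the array median, against 5.89% of all probe sets, and on the larger design 6 of 16 did, against 4.52%. No member lay more than 1 log2 unit lower on either design, as 7.3% and 5.78% of all probe sets did. The median over the members was 1.15 and 0.92 log2 units on the smaller and the larger design, against -0.27 and -0.24 over all probe sets. Every 12-day array was above every saline array for 9 members on the smaller design (12.1% of all probe sets) and for 12 on the larger (21.1%), and 1 member, a probe set of Egr2, was below on both (40.2% and 51.1%). The 12-day pups were untreated and the 8-day pups had been given saline, so age, injection and the separate normalization cannot be told apart, and no test was made. In tissue RNA, a difference in the number of expressing cells and one in RNA per cell cannot be told apart either.

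**Figure D1:**
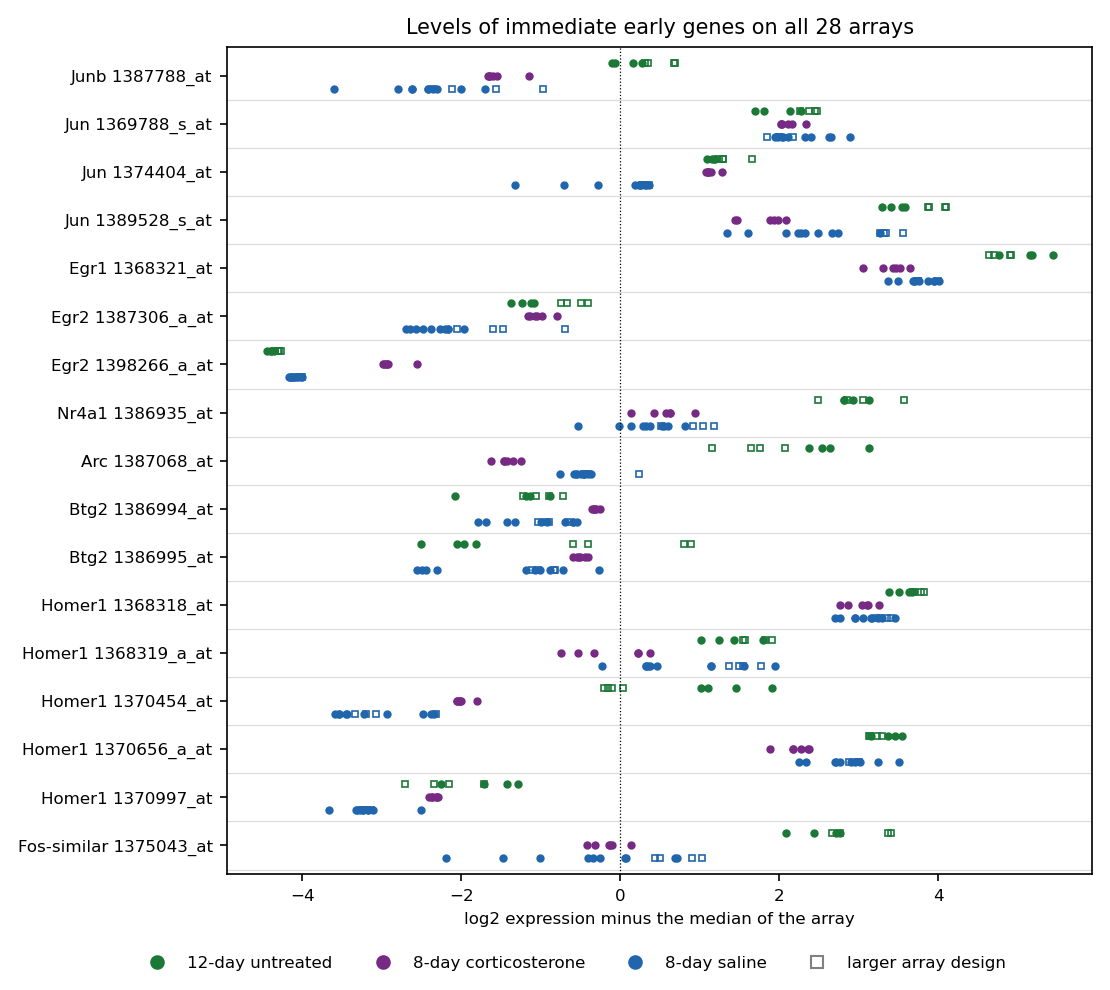
Log2 expression minus the median of the array (horizontal axis) for the 16 member probe sets and the Fos-similar probe set on each of the 28 arrays, with 12-day arrays above corticosterone and saline arrays in each row, and open squares for the larger array design. Junb, Nr4a1, Arc, Homer1 1370454_at and the Fos-similar probe set show a gap between all 12-day and all saline arrays, with mean differences of 2.55, 2.62, 3.18, 4.46 and 2.91 on the smaller design.

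Among the transcription factors, Nr4a1, an orphan nuclear receptor, averaged 2.93 ± 0.15 above the array median in 12-day pups (SD, n = 4) and 0.31 ± 0.38 above it in saline pups (n = 10) on the smaller design, a difference of 2.62. On the larger design the difference was 2.08. Junb, which encodes a partner of FOS in the AP-1 factor, averaged 0.07 ± 0.18 in 12-day pups and -2.48 ± 0.50 in saline pups on the smaller design, with differences of 2.55 and 2.26 on the smaller and the larger design. The Fos-similar probe set differed by 2.91 and 2.34. Thus the 3 probe sets of this group stood above 99% of probe sets in their shift between ages on both designs, with the lowest rank at 99.1% for Nr4a1 on the larger one.

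Egr1, a zinc finger factor widely used as a mark of plasticity, was already high in saline pups, at 3.75 ± 0.21 above the array median, and stood at 5.14 ± 0.27 in 12-day pups on the smaller design. Its difference was 1.39 there and 0.98 on the larger design. Egr2, a factor of the same family, differed by 1.15 and 0.88 at probe set 1387306_a_at. Its other probe set, 1398266_a_at, read about 2 log2 units in every group, near the bottom of each array, with differences of -0.30 and -0.29 in log2 units but 2.60 and 2.69 percentile points higher, so it gave no direction. Jun, the founding member of its family, differed by 1.19 and 1.06 at probe set 1374404_at and by 1.15 and 0.61 at 1389528_s_at. At the third Jun probe set, 1369788_s_at, the 12-day value was 0.32 lower on the smaller design and 0.38 higher on the larger.

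Homer1 and Arc, which act at the synapse, held the largest differences of level on the smaller design. Arc, whose protein removes AMPA receptors from synapses, averaged 2.67 ± 0.33 above the array median in 12-day pups (n = 4) and -0.51 ± 0.11 in saline pups (n = 10) on the smaller design, a difference of 3.18 or 9.04-fold relative to the median. On the larger design it was 1.93. Homer1 encodes a scaffold of the postsynaptic density, and besides its long forms it makes a short form that activity induces. The files do not say which form a probe set reads, and its 5 probe sets did not shift alike. Probe set 1370454_at differed by 4.46 and 2.88 on the smaller and the larger design, which was above 99.9% and 99.7% of all probe sets, and 1370997_at differed by 1.53 and 0.97. The remaining probe sets of the gene, 1368318_at, 1368319_a_at and 1370656_a_at, differed by 0.48, 0.64 and 0.54 on the smaller design and by 0.43, 0.17 and 0.24 on the larger.

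Btg2, an antiproliferative protein that recruits the CCR4-NOT deadenylase, had no common direction in this comparison. Its probe set 1386994_at was 0.26 and 0.09 lower at 12 days on the smaller and the larger design. At 1386995_at the 12-day value was 0.59 lower on the smaller design and 1.13 higher on the larger one, so the 2 designs gave opposite signs.

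Beside these levels, myelin genes differed most among the cell type lists. All 6 oligodendrocyte markers were more than 1 log2 unit higher at 12 days on both designs, with medians of 3.66 and 3.92, while the medians of the 8 measured neuronal markers were 0.39 and 0.25. Their part in the levels of immediate early genes was not tested.

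Corticosterone and saline pups were of the same age and differed less clearly, on scales that were not alike: 33.2% of all probe sets lay more than 1 log2 unit higher with corticosterone. Of the members, 4 of 16 did so, namely Jun 1374404_at (1.17), Egr2 1387306_a_at (1.32) and 1398266_a_at (1.21), and Homer1 1370454_at (1.10). In percentile points they differed by 10.98, 4.54, 0.33 and 1.96 in the same order. Arc had the lowest difference of the members. It averaged -1.43 ± 0.13 relative to the array median with corticosterone (n = 6) and -0.51 ± 0.11 with saline (n = 10, smaller design), a difference of -0.92 log2 units and -8.79 percentile points. It was the 1 member with every corticosterone array below every saline array (13.3% of all probe sets), while 7 had them above (40.3%), and no member was more than 1 log2 unit lower (4.47%). Among all probe sets, 5.59% had a lower difference. Egr1 differed by -0.35 log2 units and 0.04 percentile points and Nr4a1 by 0.25 and 3.04.

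The question the design puts to these genes is whether pairing of odor and shock changed them, and it was asked within each condition. Rank products over all pairs of a paired and an unpaired array, the test the design text names, served to call probe sets where the share of false positives estimated from shuffled arrays (pfp) was under 0.05. At 12 days, 8 of 15866 probe sets were called higher in paired pups (0.0504%) and 0 lower, and 1 of them was a member: Btg2 1386995_at. Over pairs of the same replicate number, 22 were called higher (0.139%) and 12 lower (0.0756%), and this probe set was again the 1 member. The paired array was above the unpaired array in all 4 such pairs for 5 members (3.93% of all probe sets), namely both probe sets of Btg2, Arc, Nr4a1 and Junb, and below it in all 4 for 0 members (2.85%). Limma with the replicate set as a block called 0 of 15866 after Benjamini-Hochberg adjustment, with 468 at an unadjusted p under 0.05 (2.95%). Of the members, 3 of 16 passed that unadjusted threshold, each of them higher in paired pups (1.66% of all probe sets). With the replicate number as a block limma called 0 as well, with 428 at an unadjusted p under 0.05 (2.7%), of which 4 were members, both probe sets of Btg2, Arc and Nr4a1.

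Btg2 1386995_at read 4.49, 4.64, 7.30 and 7.18 in paired replicates 1 to 4, against 4.38, 3.91, 6.02 and 5.84 in unpaired replicates 1 to 4. Within each replicate set both paired arrays were above both unpaired arrays, although replicates 1 and 2 of either group lay below replicates 3 and 4 of both. The difference was 0.87 log2 units (SE 0.20 with the set as a block, 95% interval 0.42 to 1.32), a 1.82-fold ratio, with a pfp of 0.0425. It was 0.42 in replicates 1 and 2 and 1.31 in replicates 3 and 4. The exact two-sided permutation test within sets gave p = 0.0556, the smallest value that its 36 relabellings allow, and the adjusted limma p was 0.999. The pfp was 0.01 over pairs of arrays of the same set and 0.00625 over pairs of the same replicate number, but 0.0717 when only probe sets with a mean of at least 5 were ranked, and 6 of the 8 runs that left out 1 array did not call it (pfp 0.0371 to 0.395 over the 8 runs). In the authors' deposited table its pfp was 0.04.

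The other Btg2 probe set, 1386994_at, read 5.27, 5.58, 5.69 and 5.48 in paired pups, against 4.36, 5.29, 5.36 and 5.21 in unpaired pups. Here the groups overlapped only through paired replicate 1, and unpaired replicate 1 lay apart at the low end. The difference was 0.45 (SE 0.20, 95% interval -0.0027 to 0.91, exact permutation p = 0.111) and its pfp was 0.567, so this probe set was not called. Over pairs of the same number, where paired pups were higher in all 4, the SE was 0.14 and the pfp 0.170.

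Arc and Nr4a1 were not called either, but in both genes the paired arrays were above the unpaired arrays in every set. Such a separation occurred in 3 of the 16 member probe sets, Btg2 1386995_at included, and in 2.0% of all probe sets, and the opposite one in 0 members and 1.38% of all. Arc read 9.09, 9.59, 8.18 and 8.44 in paired pups, against 8.98, 8.78, 7.58 and 8.08 in unpaired pups. The sets differed more than the groups did, and the difference between groups was 0.46 in replicates 1 and 2 and 0.48 in replicates 3 and 4. Over all arrays it was 0.47 (SE 0.15, 95% interval 0.13 to 0.80, limma p = 0.0123 and 0.999 adjusted, exact permutation p = 0.0556, pfp 0.452).

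Nr4a1 read 9.38, 9.59, 9.47 and 9.95 in paired pups, against 9.25, 9.23, 8.90 and 9.29 in unpaired pups. All 4 paired arrays were above all 4 unpaired arrays, which was the case for 0.334% of all probe sets. The difference was 0.43 (SE 0.14, 95% interval 0.11 to 0.75, limma p = 0.0140 and 0.999 adjusted, exact permutation p = 0.0556, pfp 0.560), with 0.25 in replicates 1 and 2 and 0.61 in replicates 3 and 4.

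**Figure D2:**
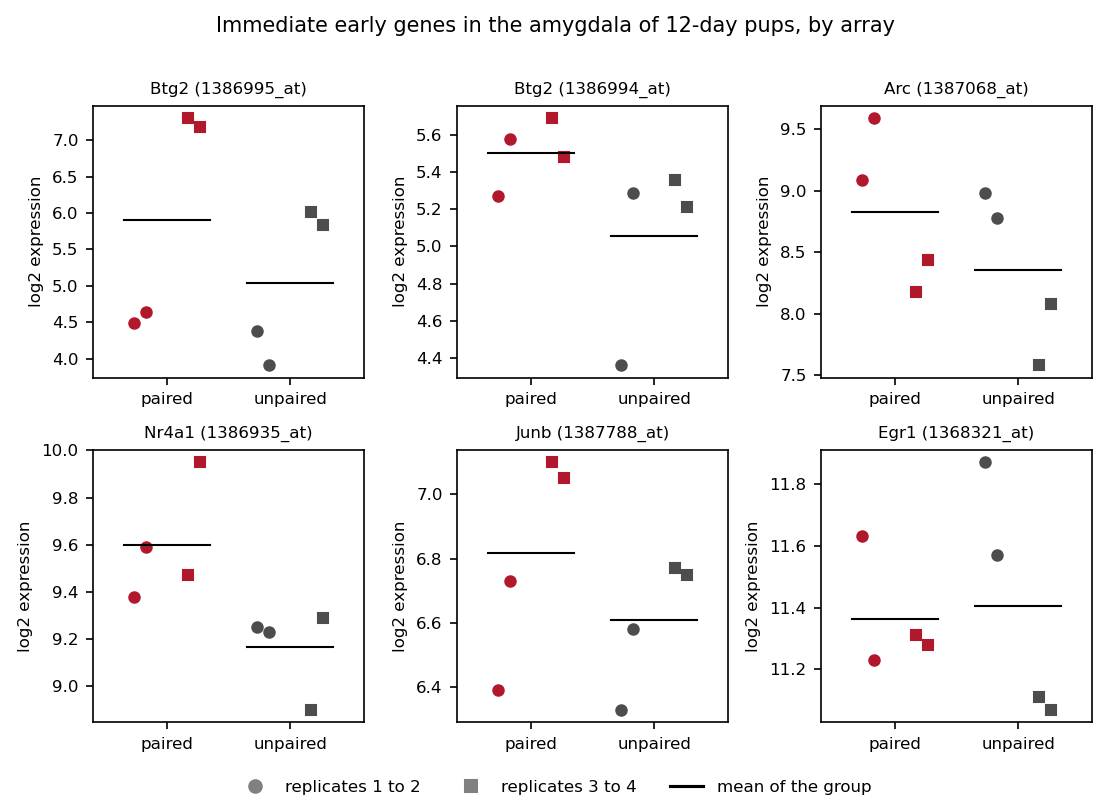
Log2 expression in each 12-day array (vertical axis, each panel with its own scale), paired pups left and unpaired pups right, with circles for replicates 1 and 2, squares for replicates 3 and 4 and a line at the mean of each group. Btg2 1386995_at, Arc and Nr4a1 have the paired arrays above the unpaired arrays of the same set, while the Egr1 arrays of the groups are mixed.

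Junb read 6.39, 6.73, 7.10 and 7.05 in paired 12-day pups, against 6.33, 6.58, 6.77 and 6.75 in unpaired pups, with overlap of the groups in replicates 1 and 2, although each paired array was above the unpaired array of its number. Its difference was 0.21 (SE 0.11, and 0.11 with the replicate number as a block). The Fos-similar probe set read 9.21, 8.54, 9.79 and 9.78 in paired pups, against 8.88, 9.12, 9.19 and 9.09 in unpaired pups. Paired replicate 2 was the lowest of the 8 arrays, and the difference of 0.26 (SE 0.19) was -0.12 in replicates 1 and 2 and 0.64 in replicates 3 and 4.

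Egr1 read 11.63, 11.23, 11.31 and 11.28 in paired 12-day pups, against 11.87, 11.57, 11.11 and 11.07 in unpaired pups. The sign differed between the sets, and the difference was -0.04 (SE 0.13, 95% interval -0.34 to 0.25). Egr2 differed by 0.07 (SE 0.12) at 1387306_a_at and by -0.01 at 1398266_a_at. The Jun differences were -0.01, -0.12 and -0.03, with standard errors between 0.09 and 0.14. All 5 Homer1 differences were below 0, with -0.27 (SE 0.16) at 1370454_at and -0.05 to -0.12 at the other probe sets. Homer1 1370454_at read 7.46, 7.57, 6.26 and 6.41 in paired pups, against 8.35, 7.87, 6.21 and 6.33 in unpaired pups, and its difference lay in replicates 1 and 2 (-0.60, against 0.06 in replicates 3 and 4). Counted by probe set, the members had no common direction, with 6 higher and 10 lower and a median of -0.02, against -0.01 over all probe sets. The lower ones include all 3 probe sets of Jun and all 5 of Homer1, so this count depends on the number of probe sets per gene. Junb, Nr4a1, Arc and both probe sets of Btg2 were among the higher.

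Markers of other tissues differed between paired and unpaired 12-day pups. The summed level of the 5 measured choroid plexus markers was 12.56 to 14.69 on the log2 scale in paired pups and 10.89 to 14.53 in unpaired pups, 4 of 5 were higher and Ttr was called. That sum differed by 0.14 in replicates 1 and 2 and by 1.90 in replicates 3 and 4. For the hypothalamus, all 5 measured markers were higher and 1 was called, with sums of 9.94 to 11.14 in paired pups and 7.50 to 11.03 in unpaired pups and differences of 0.07 and 1.50 in the 2 sets. All 5 midbrain dopamine markers were higher, 2 of them called, with differences of the sum of 0.58 and -0.01. In the other direction, all 6 striatal markers were lower, with sums of 11.13 to 12.98 in paired pups and 11.33 to 13.07 in unpaired pups and differences of -0.46 and -0.07, and all 6 oligodendrocyte and all 3 measured microglia markers were lower as well, with medians of -0.09 and -0.08. None of these was called. Of the 8 neuronal markers 6 were lower, with a median of -0.04, and Camk2a had a difference of -0.62. Their part in the values of Btg2, Arc and Nr4a1 was not tested. In replicates 1 and 2 and in replicates 3 and 4, the differences were 0.42 and 1.31 for Btg2 1386995_at, 0.25 and 0.61 for Nr4a1, and 0.46 and 0.48 for Arc.

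With corticosterone, 4 of 15866 probe sets were called higher in paired pups (0.0252%) and 0 lower, and none was a member. Limma called 0, with 449 at an unadjusted p under 0.05 (2.83%, and 0.863% higher in paired pups), of which 0 were members. Egr1 read 8.40, 8.12 and 8.54 in paired pups, against 8.71, 8.60 and 8.51 in unpaired pups, and only paired replicate 3 reached into the unpaired range. The difference was -0.26 (SE 0.12, 95% interval -0.55 to 0.03). An exact permutation test gave p = 0.2, where 3 arrays against 3 cannot give less than 0.1. The Fos-similar probe set read 4.94, 4.75 and 4.66 in paired pups, against 4.95, 5.22 and 4.95 in unpaired pups, without overlap, and differed by -0.26 (SE 0.12, exact permutation p = 0.1).

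Of the members, 2 of 16 had all paired arrays below all unpaired arrays with corticosterone, against 5.02% of all probe sets, and none had them above (1.94%). These were Btg2 1386995_at, at 4.55, 4.55 and 4.48 in paired pups against 4.66, 4.65 and 4.57 in unpaired pups, and the low probe set of Egr2, 1398266_a_at, at 2.11, 2.10 and 2.13 in paired pups against 2.14, 2.15 and 2.52 in unpaired pups. Arc read 3.63, 3.61 and 3.73 in paired pups, against 3.63, 3.84 and 3.46 in unpaired pups, so the groups differed by 0.01 (SE 0.10). Nr4a1 differed by 0.01 (SE 0.20) and Junb by 0.18 (SE 0.13). Egr2 1387306_a_at differed by -0.17 (SE 0.08), the Jun probe sets by 0.12, 0.04 and -0.03, Btg2 1386994_at by -0.04, and the Homer1 probe sets by -0.02 to 0.31. Thus 8 members were higher and 8 lower with a median of 0.00, against -0.02 over all probe sets, of which 38.2% were higher. All 6 striatal markers and 4 of 5 choroid plexus markers were lower in these paired pups, as were 5 of 6 oligodendrocyte and 4 of 5 hypothalamus markers. All 5 measured endothelial and blood markers and 4 of 5 midbrain dopamine markers were higher. None of these markers was called, and their part was not tested. The striatal sums were 9.49 to 11.03 in paired pups and 10.32 to 10.73 in unpaired pups, and the choroid plexus sums were 11.77 to 13.21 in paired pups and 12.96 to 13.27 in unpaired pups.

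With saline, the largest of the 3 conditions, 11 of 15866 probe sets were called higher (0.0693%) and 17 lower (0.107%) in paired pups, and none was a member. Over pairs of the same replicate number, 49 were called higher (0.309%) and 55 lower (0.347%), again without a member but with the Fos-similar probe set among the higher. Limma called 0, with 1088 at an unadjusted p under 0.05 (6.86%). With the replicate number as a block, limma also called 0, with 2137 at an unadjusted p under 0.05 (13.5%), of which 2 were members, Egr1 and the low probe set of Egr2. Egr1 was the 1 member among the 1088, of which those higher in paired pups made up 5.17% of all probe sets. It read 9.89, 10.11, 10.11, 9.87, 10.07, 10.05 and 9.88 in paired replicates 1 to 7, against 9.63, 9.86, 9.86, 9.87, 9.43, 9.96 and 9.80 in unpaired replicates 1 to 7. The paired arrays spanned a narrow range at the top, and unpaired replicate 6 lay within it, while unpaired replicate 4 was level with its lowest array. The difference was 0.22 (SE 0.08, 95% interval 0.04 to 0.40, limma p = 0.0189 and 0.663 adjusted), with a pfp of 0.987 and an exact permutation p of 0.0222 within sets.

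In the same saline arrays the Fos-similar probe set read from 4.59 to 7.01 in paired pups (median 6.65) and from 3.87 to 7.14 in unpaired pups (median 5.85). Replicate 5 was the lowest of its group in both, and the ranges overlapped almost fully. Between arrays of the same number, however, the paired array was higher in 6 of 7 pairs, with differences of -0.13 to 0.95, as in at least 6 of 7 pairs for 25.7% of all probe sets. The difference of the means was 0.50 (SE 0.36, 95% interval -0.28 to 1.27 with the set as a block, exact permutation p = 0.236 within sets), and rank products over all pairs of arrays did not call it (pfp 0.232). With the replicate number as a block the SE was 0.14 and the 95% interval 0.18 to 0.82 (limma adjusted p = 0.300). Rank products called it over pairs of the same number (pfp 0.0356) and over pairs of the same set (pfp 0.035). Junb ranged from 3.43 to 5.14 in paired pups (median 3.79) and from 2.54 to 4.56 in unpaired pups (median 3.71), a difference of 0.19 (SE 0.25). Arc ranged from 5.54 to 6.36 (median 5.63) in paired pups and from 5.36 to 5.70 (median 5.66) in unpaired pups, with a difference of 0.14 (SE 0.11) that was 0.04 without paired replicate 3. Nr4a1 ranged from 5.59 to 7.16 (median 6.71) in paired pups and from 6.08 to 7.29 (median 6.59) in unpaired pups, a difference of -0.01 (SE 0.18).

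Btg2, the gene called at 12 days, differed in saline pups by 0.09 (SE 0.13) at 1386995_at and by -0.20 (SE 0.13) at 1386994_at. Jun differed by -0.06, 0.02 and 0.12, Egr2 by 0.08 and 0.02, and Homer1 by -0.06 to 0.17 over its 5 probe sets. The 12 higher and 4 lower members had a median of 0.07, against 0.02 over all probe sets, of which 61.1% were higher. No member was separated in every set in either direction, as 0.208% and 0.0756% of all probe sets were. In all 7 pairs of the same number 1 member was higher (8.02%), the low probe set of Egr2, by at most 0.04, and 0 were lower (0.605%). All 6 striatal markers were higher in paired saline pups, 2 of them called, and all 5 midbrain dopamine markers were lower, 3 of them called. The sums differed by 0.52 and -0.41. The hypothalamus sum differed by -0.52, although 3 of its 5 measured markers were higher (median 0.03). Its 1 called marker, Pmch, differed by -1.28. All 6 oligodendrocyte markers were lower (median -0.24). The neuronal markers had a median of -0.08, and 6 of 8 were lower, with Nefl at -0.17, Nefm at -0.23 and Slc17a6 at -0.40. Gad1 and Gad2 were higher, by 0.15 and 0.30. Their part in the values of Egr1 and the Fos-similar probe set was not tested.

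**Figure D3:**
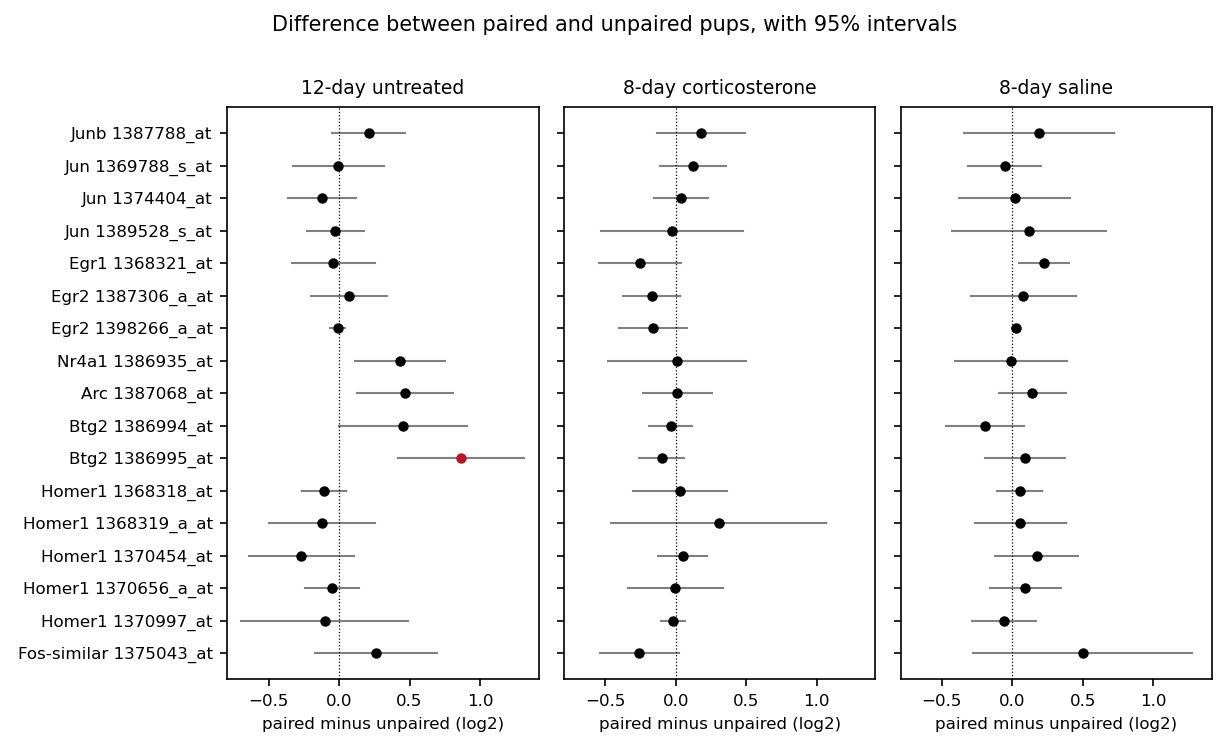
Paired minus unpaired difference in log2 expression (horizontal axis) with its 95% interval from limma, for the 16 member probe sets and the Fos-similar probe set, in 12-day, corticosterone and saline pups from left to right. Btg2 1386995_at at 12 days, in red, is the 1 probe set of the plot that rank products called over all pairs of arrays, at 0.87, and the intervals have the replicate set as a block at 12 days and with saline.

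**Figure D4:**
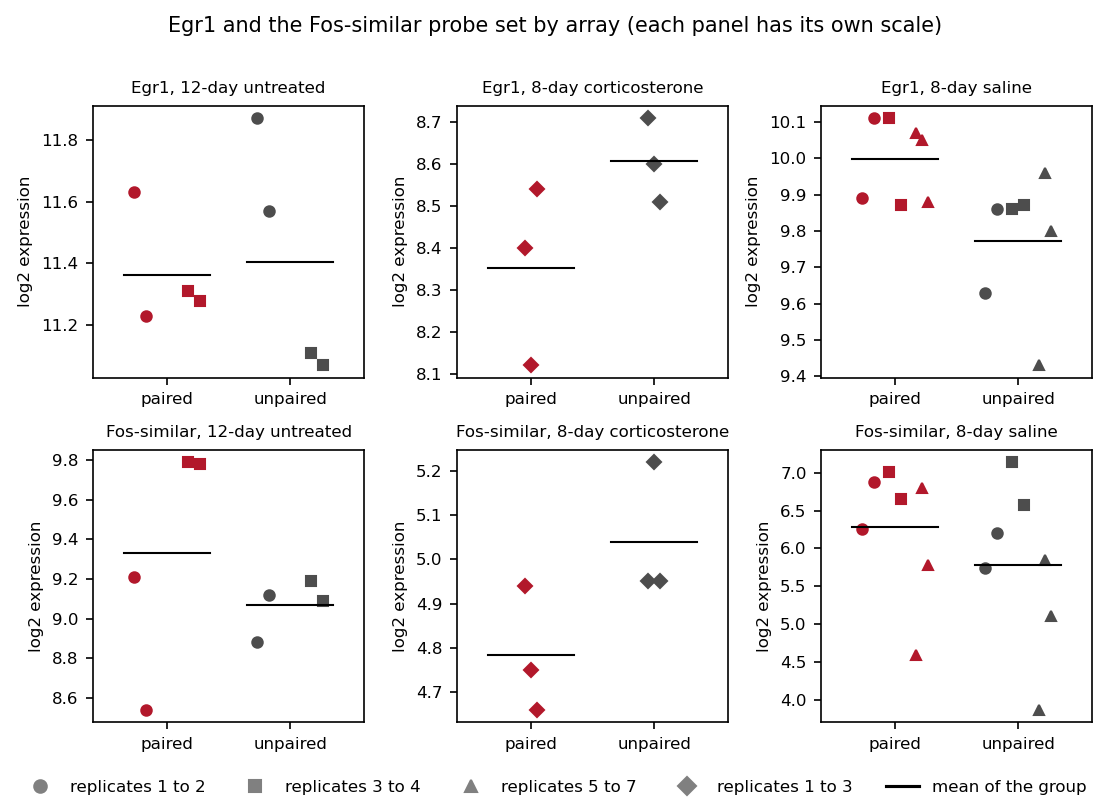
Log2 expression of Egr1 (top) and the Fos-similar probe set (bottom) in each array, paired pups left and unpaired pups right, for 12-day, corticosterone and saline pups, with symbols for replicate sets (diamonds for the 1 set with corticosterone) and a line at the mean of each group. The Egr1 means differ by -0.04, -0.26 and 0.22 in that order.

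Whether the pairing difference itself changed between conditions was tested with limma in 1 model over the 28 arrays. The model has 1 estimate of the spread per probe set for all 3 conditions, which were normalized apart, so its intervals assume a like spread. Fitted within conditions, the SE of the pairing difference of Btg2 1386995_at was 0.20 at 12 days, 0.07 with corticosterone and 0.13 with saline. No member passed the adjusted threshold in any of the 3 contrasts, which called 0 of 15866 probe sets for 12-day minus saline and for 12-day minus corticosterone and 1 (0.0063%) for corticosterone minus saline, with 598 (3.77%), 243 (1.53%) and 1394 (8.79%) at an unadjusted p under 0.05. At Btg2 1386995_at the pairing difference was 0.78 larger at 12 days than with saline (SE 0.22, 95% interval 0.33 to 1.23, limma adjusted p = 0.858) and 0.97 larger than with corticosterone (SE 0.26, 95% interval 0.42 to 1.51, adjusted p = 1.00). The other Btg2 probe set was 0.65 larger at 12 days than with saline (SE 0.21, adjusted p = 0.858). For Egr1 the pairing difference with corticosterone was 0.48 below that with saline, a contrast of -0.48 (SE 0.17, 95% interval -0.83 to -0.13, adjusted p = 0.553).

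A wider list of 61 activity-regulated genes and regulators, of which 45 were measured with 59 probe sets, was set beside the members. Rank products and limma (adjusted) called 0 of the 59 in each of the 3 conditions. At an unadjusted limma p under 0.05 there were 0 at 12 days, 2 with corticosterone and 5 with saline. The shares of all probe sets at that threshold were 2.95%, 2.83% and 6.86% in the same order. The smallest p at 12 days was that of Dusp1, a phosphatase that turns off MAP kinases, at 9.42 ± 0.27 in paired pups and 9.03 ± 0.36 in unpaired pups (SD, n = 4 each), a difference of 0.38 (SE 0.17, limma adjusted p = 0.999). Its other probe set differed by 0.39 (SE 0.18), Dusp5 by 0.22 and Plk2 by 0.10. With corticosterone, Ccn2, a matricellular protein, averaged 5.72 ± 0.10 in paired pups and 6.18 ± 0.18 in unpaired pups (n = 3 each), a difference of -0.46 (SE 0.11, limma adjusted p = 0.676). Nr4a2, a relative of Nr4a1, differed by -0.24 (SE 0.11). Ier5 1375202_at differed by -0.04 and Crem 1387714_at by -0.08, both at low levels.

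With saline the smallest p of the list was that of Sgk1, a kinase induced by glucocorticoids. It averaged 9.69 ± 0.25 in paired pups and 9.95 ± 0.17 in unpaired pups (SD, n = 7 each) and was lower in every set, with a difference of -0.26 (SE 0.05, limma adjusted p = 0.663). Bdnf, a neurotrophin whose transcription follows neuronal activity, averaged 4.87 ± 1.12 in paired pups and 5.46 ± 0.80 in unpaired pups at 1368677_at, which makes -0.59 (SE 0.17, limma adjusted p = 0.663, pfp 0.0611). Rgs2, which shortens signalling of G proteins, was on the other side, with differences of 0.45 (SE 0.14) and 0.35 (SE 0.11) at its 2 probe sets and adjusted limma p of 0.663 for both.

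In level, 13 of the 59 probe sets of the wider list lay more than 1 log2 unit higher at 12 days than with saline on the smaller design and 8 on the larger, with medians of 0.03 and -0.03 (5.89% and 4.52% of all probe sets). Egr4, another EGR factor, differed by 2.75 and 2.61 at 1387442_at, and Zfp36, which promotes the decay of AU-rich mRNAs, by 2.48 and 2.32. Bdnf 1368677_at differed by 1.66 and 1.94, and Dusp1 1368146_at by 1.53 and 1.48. Egr4 1375784_at (-0.34 and -0.32) and Bdnf 1368678_at (-0.27 and -0.26), both at low levels, did not share the rise. In the other direction, 3 of the 59 lay more than 1 log2 unit lower on each design (7.3% and 5.78% of all probe sets). Klf6, a zinc finger factor, differed by -3.11 and -3.39, Crem 1369738_s_at by -1.79 and -1.17, and Myc by -1.18 and -1.16. Crem 1369737_at (0.35 and 0.73) and 1387714_at (0.92 and 0.92) were higher, so Crem had no common direction. The 7 genes from Egr4 to Myc were chosen after their values were seen.

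Arrays that were high in the Fos-similar probe set were compared with the same arrays in the 8 member genes, with 1 probe set per gene, after each array was centred on the mean of its replicate set. Permutations shuffled arrays within sets. Of 24 relations, 18 were positive with a median Pearson's r of 0.22, and 0 had an adjusted permutation p under 0.05. With Egr1 in place of the Fos-similar probe set, 12 of 21 relations were positive with a median r of 0.02, and 0 passed. The highest in saline pups was Egr1, with r = 0.69 and Spearman's rho = 0.56 over 14 arrays (permutation p = 0.0253 and 0.0679, adjusted 0.282 and 0.407), and r was 0.36 without the 2 arrays farthest from the median of the Fos-similar values. Egr2 1387306_a_at had r = 0.45 and rho = 0.69 (permutation p = 0.00932 and 0.00593, adjusted 0.224 and 0.142), and r was 0.53 without those 2 arrays. Junb had r = 0.48 and rho = 0.60 with saline (permutation p = 0.0352 and 0.0279, adjusted 0.282 and 0.335). With corticosterone the r of Junb was -0.71 over 6 arrays (permutation p = 0.139, adjusted 0.667), the largest of the 24 in absolute size. At 12 days it was 0.28, so Junb had no common sign over the conditions. Within saline replicates 5 to 7 alone, r was 0.68 for Egr1, 0.67 for Egr2 and 0.63 for Junb over 6 arrays, but 0.11 for Arc, 0.02 for Btg2, -0.11 for Jun, -0.15 for Nr4a1 and -0.42 for Homer1. These 6 arrays include the 2 numbered 5, the lowest of their groups in the Fos-similar probe set, so the values may rest on them. The 8 other genes most like the Fos-similar probe set over the 28 arrays were Slc15a2 (r = 0.84), Timp3, Nr3c1, Pank4, Parg, LOC207125, Trpm7 and Gabarapl2 (r = 0.77), chosen among 3007 probe sets by deviations from the mean of each set and training group, against 0.68 at the 99 percentile of all 15866 probe sets. This likeness rests on the 2 saline arrays numbered 5, which were 1.14 and 1.07 below their means in the Fos-similar probe set. Without them the r of these genes was 0.29 to 0.61.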

How the data were processed

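Amygdala RNA of 28 rat pup samples was measured on Affymetrix arrays of 2 designs. Per the submitters' processing notes, RMA and GCRMA were used, with no version. The deposited values are log2 expression values per probe set, and the 15866 probe sets on both designs were analysed. The authors also deposited 1 rank product table per condition, which per the file headers holds a rank product score, the estimated proportion of false positives, or pfp, which is a score and can be above 1, a fold (the ratio of unpaired over paired pups), and a p-value. These tables gave symbols and titles. The smaller of the 2 directional pfp values is printed. Differences of group means matched the logarithm of their folds to within 0.000307, and the rerun shared 8 of the 9 calls of the authors at 12 days and all calls elsewhere.

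Samples were grouped by their titles. Paired and unpaired pups were compared within conditions by rank products (100 shuffles within arrays, pfp under 0.05), and with limma 3.58.1 in R 4.3.3 (trend, Benjamini-Hochberg adjustment), with the replicate set as a block. Intervals are at 95% and moderated. Exact two-sided permutations relabelled training within sets (720 relabellings with saline, 20 with corticosterone, 36 at 12 days). Same-numbered arrays of the 2 groups deviated together at 12 days (correlations 0.60 to 0.73) and with saline (0.54 to 0.86), but not with corticosterone (-0.28 to 0.04). Arrays of the same set correlated as well, so these values do not show that the numbers pair samples. Pairing by number was assumed at 12 days and with saline. Results over pairs of the same number, or with the replicate number as a block, rest on that assumption. Replicates are separate samples by their labels only, so p-values measure the spread between samples, which may be technical. Levels between conditions were log2 values minus the array median, within an array design. A list's summed level is the log2 of its summed linear values. The rest was done in Python 3.11.15 with scipy 1.17.1, numpy 2.4.6, pandas 2.3.3 and, for plots, matplotlib 3.10.9. All probe sets of the 9 genes are named, and of the wider list the 4 with the smallest limma p per condition. The members, the lists and the replicate sets were chosen with earlier results of these data known. Rank products and limma were tested on simulated data, with changes larger than any pairing difference of a member. Changes of the size seen in the members were not simulated. Precision is limited by how many arrays there were, and signal over background was not judged here. Alternatives were other blocks, pairs, scalings, a filter on low values and leaving out arrays.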

Additional observations from a re-analysis of the deposited data

Results flagged for a closer look

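In 9 of 68 combinations of a probe set and a group of 4 to 7 arrays, 1 array stood farther from the rest than Dixon's 95% limit allows, and chance gives this in about 1 in 20 combinations of independent arrays and probe sets. Here the arrays of a group fell into sets, and the probe sets were read on the same arrays, so that rate need not hold. At 12 days these were paired pups at Jun 1369788_s_at (8.26, replicate 1) and at Jun 1374404_at (7.54, replicate 1), and unpaired pups at Btg2 1386994_at (4.36, replicate 1) and at Nr4a1 (8.9, replicate 3). With saline they were paired pups at Junb (5.14, replicate 3), Arc (6.36, replicate 3) and Jun 1374404_at (4.84, replicate 2), and unpaired pups at Egr2 1387306_a_at (5.41, replicate 3) and Arc (5.36, replicate 7). Replicate 3 of the saline groups, on the larger design, was thus the high array for Junb and Arc in paired pups and for Egr2 in unpaired pups.

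The pairing difference of Btg2 1386995_at was 0.97 log2 units larger in 12-day than in corticosterone pups. Within each set of arrays, every paired array was above every unpaired array at 12 days and below every unpaired array with corticosterone. The limma test of this difference gave an adjusted p = 1.00 over 15866 probe sets.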

How the results depend on the processing

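Counts of all called probe sets moved with the test. Rank products over pairs of the same set called 40 at 12 days and 75 with saline. Over pairs of the same replicate number (the replicate block) they called 34 at 12 days, 7 with corticosterone and 104 with saline. With a mean of at least 5, 5, 0 and 17 were called in the same order. Limma called 0 in each condition without a block and with the replicate block, and also with the set or the design as a block at 12 days and with saline. Leaving out 1 array gave 1 to 29 calls at 12 days, 1 to 33 with corticosterone and 12 to 34 with saline.

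Among the members, 0 were called with corticosterone and with saline under every alternative run. At 12 days the 1 call, Btg2 1386995_at, became 0 with a mean of at least 5 and in each limma fit, the replicate block included, and was 0 to 1 when 1 array was left out. It was called only without paired replicate 1 and without unpaired replicate 1, where its difference was 1.34 and 0.65. Over these 8 runs the difference of plain means was 0.40 (without paired replicate 3) to 1.34, with unbalanced sets, and 0.74 to 1.05 with the set as a block. At Homer1 1370454_at the 12-day difference of plain means was 0.12 without unpaired replicate 1 and -0.59 without unpaired replicate 3, but -0.36 to -0.11 over the 8 runs with the set as a block. The replicate block changed no other call among members. The Fos-similar probe set, which is no member, was called with saline over pairs of the same set (pfp 0.035) and of the same number (pfp 0.0356). It was called in none of the 14 runs over all pairs that left out 1 array (pfp 0.0552 to 0.592), and in no limma fit. Of single values under alternatives, 897 kept their direction and their side of the threshold or moved by less than 1 SD, 7 moved by more, 2 gained the call and 11 lost it, and 0 called values reversed. Values called in neither run were compared by their difference alone. Other blocks and the filter on low values leave that difference unchanged, so part of the 897 was fixed in advance. The median difference in level of members between 12-day and saline pups was 1.15 on the smaller design and 0.92 on the larger. Percentiles in place of log2 values, other anchors and the larger design were chosen after seeing the data. Both value tables held the same 15866 probe sets, so no other choice of probe sets for the array medians could be run. No set or design block was possible with corticosterone, which has 1 set.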
